A study of Mus musculus with 10 samples.

Results

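Interferon-stimulated genes were followed in the colons of mice with chemically induced colitis that received either 4-HDHA or its vehicle. The set holds 36 genes, taken by name from the annotated gene table, out of 32132 genes with a count in at least 1 library. Of these, 19 are best known as targets of type I interferon (the Ifit, Oas and Mx families and their companions), 10 as targets of interferon-gamma (guanylate-binding proteins and immunity-related GTPases), 3 are transcription factors of the pathway and 4 are nucleic acid sensors. Each of the 36 names was found, and all 36 genes passed the filter on low counts.

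The 10 libraries were made from colon tissue of adult wild-type C57BL/6 mice. Every mouse, in both groups, drank 3% dextran sulfate sodium (DSS), a polymer that injures the colonic epithelium, for 7 days. During those days 5 colons came from mice injected daily into a vein with phosphate-buffered saline (PBS) and 5 from mice injected with 4-HDHA, a hydroxylated form of the omega-3 fatty acid docosahexaenoic acid, in the same buffer. Each injection was 200 ul for 20 g of body weight, and the labels give the strength of 4-HDHA as "5um". The comparison therefore asks how colitic colon differs with 4-HDHA, and no colon without DSS was analysed here. The labels number the colons but do not say in so many words that each is a separate animal, so the p-values may measure only the spread between these libraries. No batch is named in the labels. Library totals ran from 50915365 to 66470519 counts. All 13 markers of colonic epithelium were detected in every library, with summed levels of 10700 to 19500 CPM (counts scaled to library size) with PBS and 11200 to 18100 CPM with 4-HDHA. Of the 13, 4 had a higher mean with 4-HDHA. Replicate 3 of each group had the lowest sum, and every other library had at least 16400 CPM.

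Interferons are secreted alarm signals. Type I interferon binds the receptor chains Ifnar1 and Ifnar2 and acts through a complex that holds Stat2 and Irf9 and binds the interferon-stimulated response element (ISRE) in target promoters. Interferon-gamma binds Ifngr1 and Ifngr2 and acts at the gamma-activated sequence (GAS), and it also induces Irf1, which binds ISRE-like sites. In the gut, epithelial cells, macrophages and lymphocytes all respond, so a level in colon tissue mixes them: fewer cells of a type and less RNA per cell cannot be told apart here.

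No interferon-stimulated gene differed between the groups past the threshold, although nearly all of them had a higher fitted level with 4-HDHA. Of the 36 members, 0 were called higher and 0 lower by edgeR at an adjusted p of 0.05, against 0.0% of the 19615 genes tested. The members' smallest adjusted p was 0.295, that of Gbp2. DESeq2 also called 0 of 36, against 0.97% of genes called higher and 0.516% called lower; its smallest adjusted p among members was 0.0643 for Gbp2, followed by 0.0777 for Ifit3b. At an unadjusted p under 0.05, edgeR had 6 of 36 members higher and 0 lower, against 7.39% of all genes higher and 7.45% lower. The 6 were Ifit3, Ifit3b, Xaf1, Gbp2, Gbp3 and Irf7. Positive fold changes were found for 35 of 36 members, against 51.0% of all genes, with Mx1 at zero difference. That count was 28 without 4-HDHA replicate 5 and 26 in limma voom with libraries weighted by quality. In the other fits it was 34 to 36. All members were measured in the same 10 libraries and the list was chosen with earlier results known, so these are not separate agreements. The members' median log2 fold change of 4-HDHA over PBS was 0.44, with a range from -0.0001 to 1.09, against a median of 0.0081 over all genes tested; without 4-HDHA replicate 5 it was 0.235. Only Ifit3b had groups that did not overlap, against 1.16% of all genes with the 4-HDHA libraries higher and 1.63% with them lower.

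**Figure D1:**
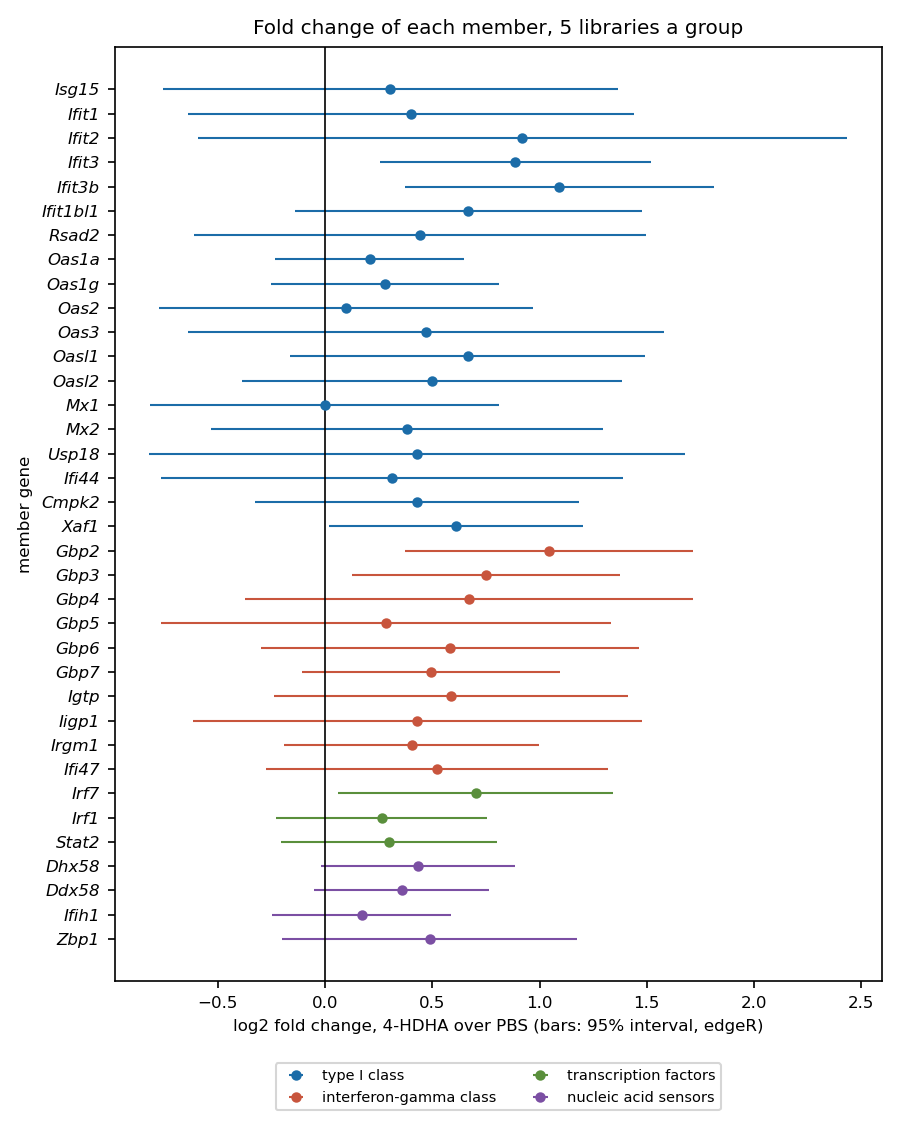
Log2 fold change of 4-HDHA over PBS (horizontal axis) for each of the 36 genes (vertical axis), from edgeR with 5 libraries a group; bars are 95% intervals and colours mark the 4 classes. The point estimates lie at or right of 0, and 30 of the 36 intervals hold 0.

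The spread between colons of one group was as large as the difference between groups for most members. The standard deviation (SD) of log2 CPM within the PBS group exceeded the size of the log2 fold change in 27 of 36 members, and that within the 4-HDHA group did so in 26. The median SD was 0.58 with PBS and 0.66 with 4-HDHA on the log2 scale. Colons of the 4-HDHA group took both of the highest ranks among the 10 libraries for 23 of 36 members. The share of all genes with such ranks was not computed, so this count has no background to be read against. It also leans on 1 library, as 4-HDHA replicate 5 was highest for 25 of the 36 and among the 3 highest for 35.

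**Figure D2:**
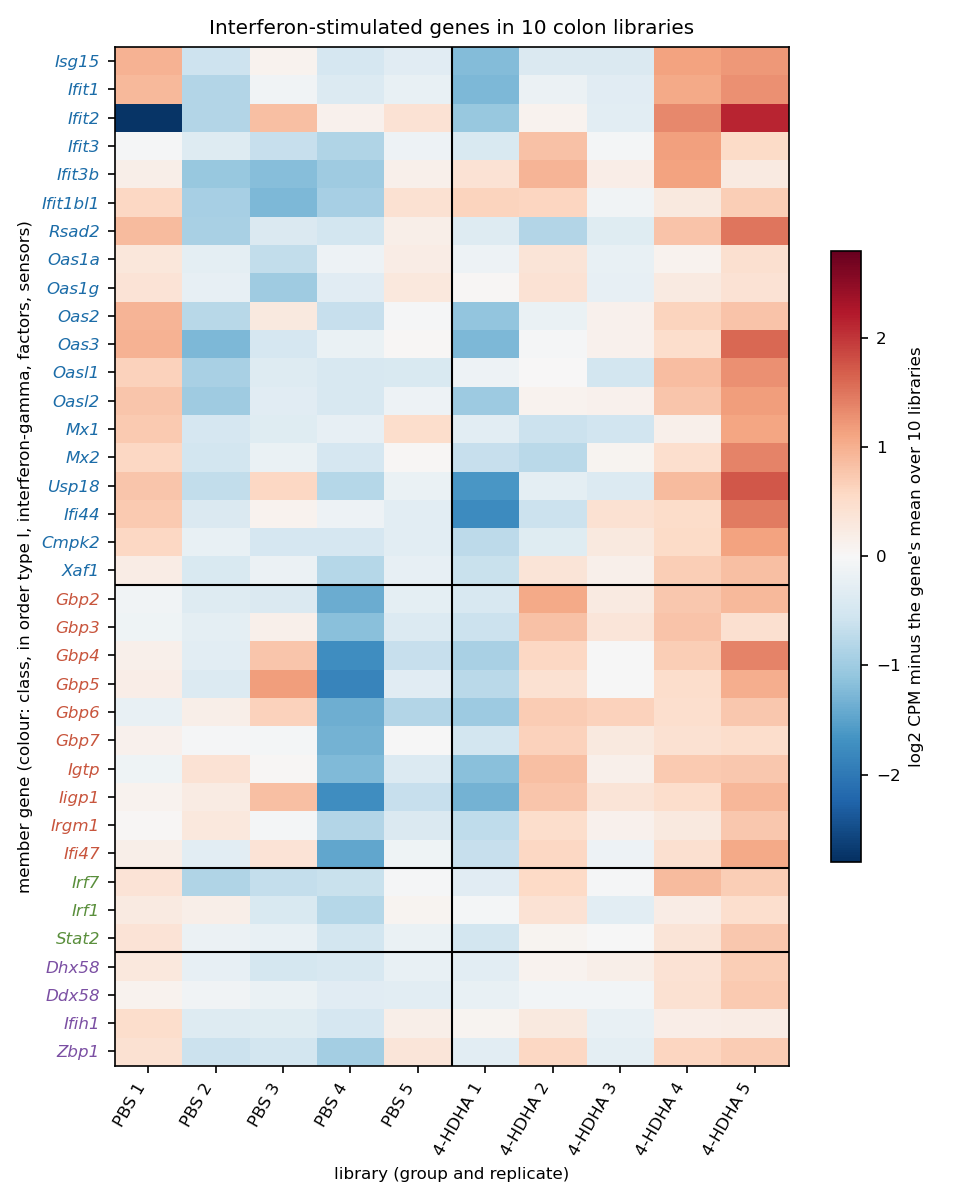
Log2 CPM of each gene (rows, coloured by class) in each library (columns), as the difference from that gene's mean over the 10 libraries. Red is above and blue below the mean; 4-HDHA replicate 5 is the highest library for 25 of 36 genes, and PBS replicate 4 is the lowest for all 10 genes of the interferon-gamma class.

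Of the 19 type I targets, 18 had a positive log2 fold change, with a median of 0.43, and 3 had an unadjusted p under 0.05. Those were Ifit3, Ifit3b and Xaf1, whereas the often used markers Isg15, Ifit1 and Mx1 differed by less than their spread within a group. Ifit proteins bind foreign RNA and block its translation. Ifit3 had 24.8, 19.9, 16.2, 14.2 and 23.0 CPM in PBS replicates 1 to 5 and 18.9, 44.9, 24.4, 56.2 and 37.1 CPM in 4-HDHA replicates 1 to 5. Replicates 2, 4 and 5 of the 4-HDHA group lay above every PBS colon, and replicates 1 and 3 lay within the PBS range. The means were 19.6 ± 4.46 CPM (PBS) against 36.3 ± 15.1 CPM (4-HDHA), as mean ± SD of 5 libraries each. Its log2 fold change was 0.89 (SE 0.29, edgeR adjusted p = 0.303).

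Ifit3b is a close copy of Ifit3 on the same strand of chromosome 19, at chr19:34607970-34613401 beside Ifit3 at chr19:34583531-34588731. Its levels were 23.4, 9.91, 9.12, 10.3 and 22.9 CPM in PBS replicates 1 to 5 and 27.6, 40.2, 23.5, 45.2 and 24.8 CPM in 4-HDHA replicates 1 to 5. The groups did not overlap, but by a narrow margin: the lowest 4-HDHA colon was just above the highest PBS colon, and PBS replicates 1 and 5 stood apart from the other 3 PBS colons. The means were 15.1 ± 7.33 CPM (PBS) against 32.2 ± 9.80 CPM (4-HDHA), as mean ± SD of 5 libraries each. For Ifit3b the log2 fold change was 1.09 (SE 0.33, edgeR adjusted p = 0.297). Of the 100-base stretches in its longest transcript, 27.4% also occur in Ifit3, and 31.7% of those of Ifit3 occur in Ifit3b, so how the deposited counts divide reads between the pair is uncertain.

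Ifit1bl1, an Ifit1-like gene of the same cluster, was by length the most abundant member, with a mean of 344 FPKM (fragments scaled to gene length and library size) over the 10 libraries, against 0.772 FPKM for Mx2, the least abundant. It had 1195, 419.7, 333, 423 and 1068 CPM in PBS replicates 1 to 5 and 1228, 1222, 749, 973 and 1291 CPM in 4-HDHA replicates 1 to 5. PBS replicates 1 and 5 reached the level of the 4-HDHA colons, and the other 3 PBS colons lay below all 5 of them. Its log2 fold change was 0.67 (SE 0.37, edgeR adjusted p = 0.391).

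Isg15 encodes a ubiquitin-like protein that is attached to other proteins during the antiviral response. Its levels were 49.1, 16.9, 27.1, 18.2 and 20.1 CPM in PBS replicates 1 to 5 and 10.8, 19.1, 19.0, 55.0 and 58.2 CPM in 4-HDHA replicates 1 to 5. PBS replicate 1 and 4-HDHA replicates 4 and 5 were high and the other 7 colons were low, so the PBS range lay within the 4-HDHA range, and 4-HDHA replicate 1 was the lowest of all. This gave a log2 fold change of 0.30 (SE 0.48, edgeR adjusted p = 0.770).

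Ifit1, which recognises RNA lacking a self cap mark, had the same 3 high colons: 57.8, 17.5, 28.6, 23.7 and 26.5 CPM in PBS replicates 1 to 5 and 13.0, 27.2, 24.8, 63.9 and 74.7 CPM in 4-HDHA replicates 1 to 5. Again PBS replicate 1 stood with 4-HDHA replicates 4 and 5. Its log2 fold change was 0.40 (SE 0.47, edgeR adjusted p = 0.680).

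Mx1 belongs to a family of antiviral GTPases and is damaged by a deletion in C57BL/6 mice, which still transcribe it. Its levels were 22.8, 9.84, 10.8, 11.6 and 19.3 CPM in PBS replicates 1 to 5 and 11.2, 9.003, 9.51, 15.1 and 29.5 CPM in 4-HDHA replicates 1 to 5. PBS replicates 1 and 5 and 4-HDHA replicate 5 were high, and the means were 14.9 ± 5.82 CPM (PBS) against 14.9 ± 8.53 CPM (4-HDHA), as mean ± SD of 5 libraries each. The 95% interval of its log2 fold change ran from -0.81 to 0.81, so a difference within those bounds was not excluded.

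Xaf1, which antagonises an inhibitor of cell death, had 25.1, 16.2, 19.3, 12.4 and 18.5 CPM in PBS replicates 1 to 5 and 14.0, 28.0, 23.8, 34.7 and 39.0 CPM in 4-HDHA replicates 1 to 5. Replicates 2, 4 and 5 of the 4-HDHA group were above all PBS colons and replicate 1 was the second lowest of all 10. For Xaf1 the log2 fold change was 0.61 (SE 0.27, edgeR adjusted p = 0.330).

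The remaining 12 type I members had positive log2 fold changes that did not pass the test. Ifit2, a relative of Ifit3, was at 0.92 with the widest interval of the set (-0.59 to 2.43), and its lowest colon, at 6.29 CPM, was the PBS replicate 1 that was high for most other type I members. The oligoadenylate synthetases, which make the second messenger that switches on the nuclease RNase L, had log2 fold changes of 0.21 for Oas1a, 0.28 for Oas1g, 0.10 for Oas2 and 0.47 for Oas3. Their relatives Oasl1, which in mice restrains Irf7 translation, and Oasl2 were at 0.66 and 0.50. Oas1a shares 40.9% of its 100-base stretches with Oas1g, and Oas1g shares 38.2% with Oas1a, so their separate counts are uncertain. Rsad2 (viperin), which makes a chain-terminating nucleotide, and its neighbour Cmpk2, a nucleotide kinase, were at 0.44 and 0.43. Usp18, which removes Isg15 from proteins and dampens the type I receptor, was at 0.43, Ifi44 at 0.31 and Mx2 at 0.38.

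RefSeq promoter windows on GRCm38.p6, from 250 bases before to 50 bases after a transcript start, were found for 27 of the 36 members and searched for the core of the ISRE, which is GAAA, any 2 bases and GAAA again, or on the other strand TTTC, any 2 bases and TTTC. The motif was in the windows of 18 of the 27 members (66.7%), against 3.99% of 27025 genes with a window; among type I members it was in 9 of 15. The stretches below are those of Isg15 and Ifit1, which had the same 3 high colons, and of Ifit3b and Ifit1bl1, whose library order was another. Ifit3 is added as the near copy of Ifit3b, and the Oas1 genes as another such pair. This choice was made from the levels above, and a link between motif and library order was not tested. The stretches are read 5′ to 3′ on the gene's strand, with the matched bases in capitals. Isg15 (chr4:156200860-156200911, minus strand) holds 3 overlapping matches, Ifit1 (chr19:34640770-34640828, plus strand) holds 2 apart from each other, and the stretches of Ifit3 (chr19:34583358-34583431, plus strand) and Ifit3b (chr19:34607754-34607827, plus strand) have the same letters throughout. Ifit1bl1 (chr19:34602048-34602087, minus strand) has 1 match in the window shown; the window of another of its transcript starts holds 1 more (chr19:34599428-34599465, minus strand), which is not printed. Oas1a (chr5:120907526-120907560, minus strand) and Oas1g (chr5:120887614-120887646, minus strand) carry 2 overlapping matches next to the start.
Isg15: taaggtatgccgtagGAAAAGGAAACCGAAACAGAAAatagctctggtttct
Ifit1: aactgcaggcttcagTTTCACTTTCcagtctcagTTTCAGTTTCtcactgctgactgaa
Ifit3: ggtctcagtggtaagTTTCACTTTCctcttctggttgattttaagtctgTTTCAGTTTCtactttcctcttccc
Ifit3b: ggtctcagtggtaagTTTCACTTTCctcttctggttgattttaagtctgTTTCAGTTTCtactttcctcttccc
Ifit1bl1: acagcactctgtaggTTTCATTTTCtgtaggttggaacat
Oas1a: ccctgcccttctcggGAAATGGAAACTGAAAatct
Oas1g: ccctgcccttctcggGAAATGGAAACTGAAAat
A match describes the letters in this window and does not show that a factor binds there.

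Among interferon-gamma targets, all 10 members had a positive log2 fold change, with a median of 0.55, and 2 of them, Gbp2 and Gbp3, had an unadjusted p under 0.05. None passed the adjusted threshold. Guanylate-binding proteins coat and break open the vacuoles of intracellular microbes and help to start inflammasomes. Gbp2, after Ifit1bl1 the most abundant member per length with a mean of 186 FPKM, had 438, 363, 352, 177 and 384 CPM in PBS replicates 1 to 5 and 344, 979.5, 552, 788 and 869 CPM in 4-HDHA replicates 1 to 5. Replicates 2 to 5 of the 4-HDHA group lay above every PBS colon, whereas replicate 1 lay within the PBS range, and PBS replicate 4 was the lowest of all. The means were 343 ± 98.4 CPM (PBS) against 706 ± 256 CPM (4-HDHA), as mean ± SD of 5 libraries each. The log2 fold change was 1.04 (SE 0.30, edgeR adjusted p = 0.295).

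Gbp3 showed the same arrangement, with 55.9, 50.1, 67.0, 27.3 and 46.8 CPM in PBS replicates 1 to 5 and 39.9, 108, 77.6, 107 and 83.8 CPM in 4-HDHA replicates 1 to 5. Replicates 2 to 5 of the 4-HDHA group exceeded the highest PBS colon, and 4-HDHA replicate 1 was second to lowest. Its log2 fold change was 0.75 (SE 0.28, edgeR adjusted p = 0.311).

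Gbp7 also had 4 of its 5 4-HDHA colons above all PBS colons, with 76.3, 68.9, 67.5, 28.3 and 69.9 CPM in PBS replicates 1 to 5 and 49.2, 109.9, 85.4, 94.4 and 98.9 CPM in 4-HDHA replicates 1 to 5. PBS replicate 4 and 4-HDHA replicate 1 were the lowest colons. For Gbp7 the log2 fold change was 0.49 (SE 0.27, edgeR adjusted p = 0.393).

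The other guanylate-binding proteins had log2 fold changes of 0.67 for Gbp4, 0.28 for Gbp5 and 0.58 for Gbp6. For Gbp5, which promotes inflammasome assembly, the highest colon was PBS replicate 3. The immunity-related GTPases, which defend the cell against vacuolar pathogens, comprise the regulators Igtp and Irgm1, at 0.59 and 0.40, and the effector Iigp1, at 0.43. Their relative Ifi47 was at 0.52. The edgeR adjusted p-values of these 7 genes were between 0.444 (Igtp) and 0.784 (Gbp5). Gbp6 shares 82.9% of its 100-base stretches with Gm43302, which overlaps it on the same strand, so its level is uncertain. Igtp overlaps Irgm2 and Gbp4 overlaps Gbp8 and Gbp9 on the same strand, and reads in the overlaps may have been counted for either gene.

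The ISRE motif was in the windows of 6 of the 7 interferon-gamma members that have one. The GAS motif TTCNNNGAA, which reads the same on both strands, was in 3 of these 7 and in 6 of all 27 members (22.2%), against 9.55% of genes; both motifs were in 4 of 27 members (14.8%), against 0.614% of genes. No ISRE match overlapped a GAS match. The stretches of the Gbp genes with values above are shown, with Igtp as a member whose window holds both motifs close together. They lie at chr3:142620589-142620628 (Gbp2), chr3:142559984-142560029 (Gbp3), chr3:142530268-142530307 and chr3:142530215-142530272 (Gbp7) and chr11:58199507-58199546 and chr11:58199496-58199534 (Igtp), all on the plus strand of GRCm38.p6. Parts of the Gbp2 and Gbp3 stretches lie inside the gene models of the deposited table, which start earlier than the RefSeq transcripts.
Gbp2, ISRE: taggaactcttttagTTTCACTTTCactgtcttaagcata
Gbp3, ISRE: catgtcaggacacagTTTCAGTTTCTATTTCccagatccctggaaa
Gbp7, ISRE: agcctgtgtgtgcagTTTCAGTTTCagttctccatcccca
Gbp7, GAS: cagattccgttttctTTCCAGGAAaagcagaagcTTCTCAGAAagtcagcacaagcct
Igtp, ISRE: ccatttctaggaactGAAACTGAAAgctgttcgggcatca
Igtp, GAS: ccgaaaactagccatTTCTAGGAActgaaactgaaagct

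The 3 transcription factors had positive log2 fold changes, and none passed the threshold. Irf7, the factor that amplifies type I interferon production, had 159.9, 67.4, 76.7, 78.9 and 119.6 CPM in PBS replicates 1 to 5 and 97.2, 179.6, 118, 225 and 197 CPM in 4-HDHA replicates 1 to 5. Replicates 2, 4 and 5 of the 4-HDHA group were above all PBS colons, and replicates 1 and 3 were within the PBS range. For Irf7 the log2 fold change was 0.70 (SE 0.29, edgeR adjusted p = 0.317).

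Irf1, an early target of interferon-gamma, had 373, 349.9, 233, 179 and 332 CPM in PBS replicates 1 to 5 and 301, 414, 254, 362 and 431 CPM in 4-HDHA replicates 1 to 5. The groups overlapped widely, with PBS replicates 3 and 4 and 4-HDHA replicate 3 low. Its log2 fold change was 0.27 (SE 0.22, edgeR adjusted p = 0.558). Irf1 is overlapped on the other strand by Gm17334, and Irf7 by Phrf1. The labels describe strand-marked libraries, but whether counting used the strand is not given in the sources used here.

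Stat2, the part of the type I complex that carries its activation domain, had 116, 79.4, 77.4, 62.2 and 78.7 CPM in PBS replicates 1 to 5 and 62.7, 93.5, 89.0, 114 and 149.9 CPM in 4-HDHA replicates 1 to 5. Only 4-HDHA replicate 5 was above every PBS colon, and 4-HDHA replicate 1 was near the bottom. For Stat2 the log2 fold change was 0.30 (SE 0.23, edgeR adjusted p = 0.518). The windows of Stat2 and Irf1 hold different motifs: an ISRE match for Stat2 (chr10:128270261-128270300, plus strand) and a GAS match for Irf1 (chr11:53769909-53769947, plus strand), shown here because these factors are both targets and mediators.
Stat2, ISRE: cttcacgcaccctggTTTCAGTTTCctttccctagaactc
Irf1, GAS: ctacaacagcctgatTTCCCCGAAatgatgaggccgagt

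The 4 sensors of foreign nucleic acid had positive log2 fold changes, 0 of them with an unadjusted p under 0.05. Dhx58 (LGP2), which tunes the RNA sensors, had 23.7, 16.6, 13.8, 14.0 and 16.8 CPM in PBS replicates 1 to 5 and 15.8, 20.8, 21.5, 25.7 and 30.9 CPM in 4-HDHA replicates 1 to 5. Replicates 4 and 5 of the 4-HDHA group were the highest, PBS replicate 1 came next, and the log2 fold change was 0.43 (SE 0.20, edgeR adjusted p = 0.344). Ddx58 (RIG-I), which detects viral RNA ends, had 30.0, 26.4, 24.9, 22.5 and 23.1 CPM in PBS replicates 1 to 5 and 24.3, 26.8, 26.8, 37.9 and 46.6 CPM in 4-HDHA replicates 1 to 5. The same 4-HDHA colons stood above the other 8, which lay close together, and the log2 fold change was 0.36 (SE 0.19, edgeR adjusted p = 0.370).

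Zbp1, a sensor of left-handed nucleic acid that can trigger necroptosis, was the most abundant sensor per length (mean 50.9 FPKM). Its levels were 254, 124, 134, 97.4 and 240.2 CPM in PBS replicates 1 to 5 and 154, 284, 157, 286 and 311 CPM in 4-HDHA replicates 1 to 5. Replicates 2, 4 and 5 of the 4-HDHA group were highest, with PBS replicates 1 and 5 next and the remaining 5 colons low. The log2 fold change was 0.49 (SE 0.31, edgeR adjusted p = 0.445). Ifih1 (MDA5), which detects long double-stranded RNA, was at 0.17 (SE 0.19, edgeR adjusted p = 0.658), and its highest colon was PBS replicate 1.

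**Figure D3:**
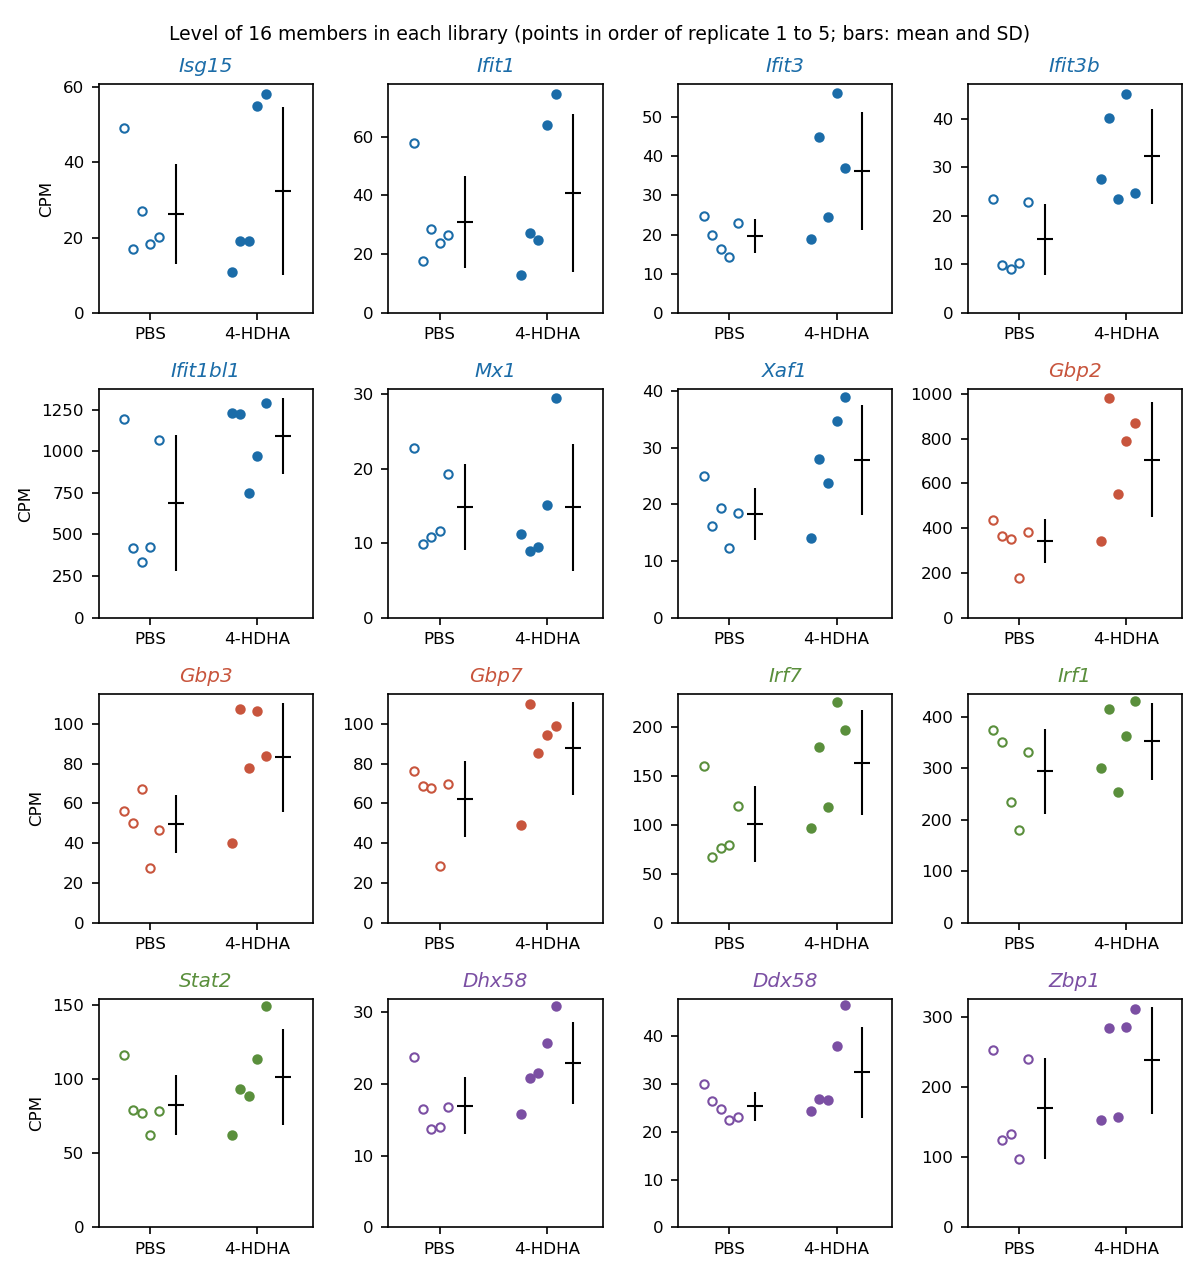
CPM (vertical axes, starting at 0) of 16 genes in each library, open circles for PBS and filled circles for 4-HDHA, in the order of replicates 1 to 5; horizontal marks are group means and bars are 1 SD (n = 5). In Ifit3b the lowest 4-HDHA point (23.5 CPM) is just above the highest PBS point (23.4 CPM), and in the other 15 genes the groups overlap.

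The classes did not share one order of libraries. For each class, each library was given the median, over members, of the difference in log2 CPM from the gene's mean over 10 libraries. For the type I class these medians were 0.63, -0.68, -0.34, -0.46 and -0.04 in PBS replicates 1 to 5 and -0.63, -0.02, -0.09, 0.68 and 1.16 in 4-HDHA replicates 1 to 5. PBS replicate 1 and 4-HDHA replicates 4 and 5 were high, and 4-HDHA replicate 1 was as low as the lowest PBS colons. For the interferon-gamma class they were 0.07, -0.16, 0.26, -1.38 and -0.38 with PBS and -0.73, 0.68, 0.19, 0.49 and 0.83 with 4-HDHA. PBS replicate 4 was far below the others and 4-HDHA replicate 1 was next, and this order of the lowest colons held in each of the 10 genes. For the transcription factors and the sensors PBS replicate 4 was lowest too, with medians of -0.625 and -0.462. The highest median was that of 4-HDHA replicate 5 in all 4 classes, at 0.694 for the transcription factors and 0.697 for the sensors.

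**Figure D4:**
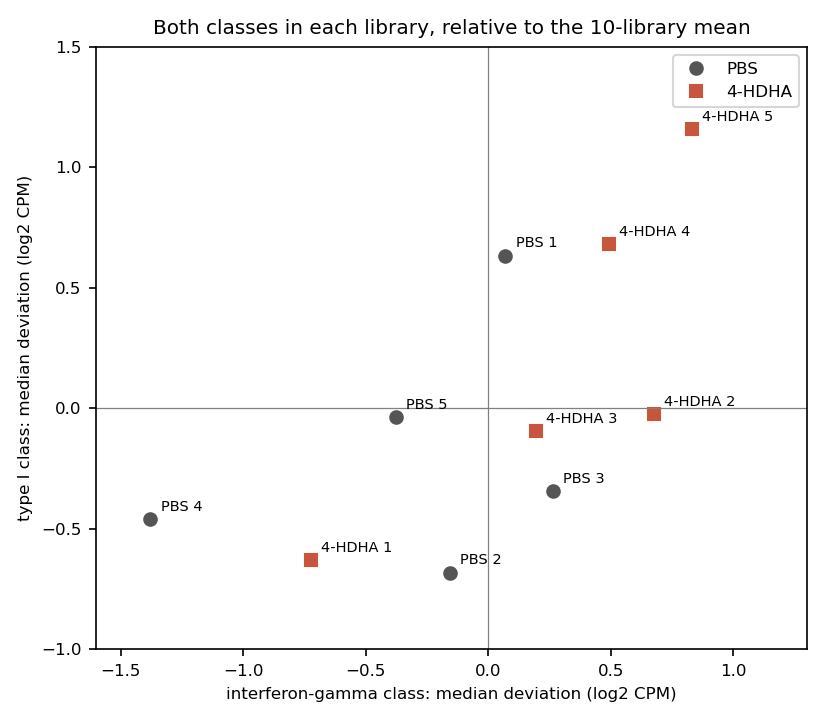
Each point is 1 library: its median deviation in log2 CPM over the 10 interferon-gamma members (horizontal axis) and over the 19 type I members (vertical axis). PBS replicate 1 is high only on the vertical axis (0.63 against 0.07), and PBS replicate 4 is lowest on the horizontal axis (-1.38).

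Within the type I class, several members departed from this order, Ifit3b and Ifit1bl1 among them. Ifit2 had PBS replicate 1 as its lowest colon, and Oas1g had 4-HDHA replicate 2 as its highest. The library 4-HDHA replicate 1 was the lowest of 10 for 7 of the 19 type I members, among them Isg15, Ifit1, Oas2, Usp18 and Ifi44. The same library was among the highest 3 for Ifit3b and Ifit1bl1. For these genes and for Oas1a and Oas1g, PBS replicate 3 was the lowest colon.

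The class medians depended on single libraries. Without 4-HDHA replicate 5, the type I median was 0.12, and 8 of the 19 members had a negative log2 fold change. It was 0.67 without PBS replicate 1. Weighting libraries by quality in limma voom gave 4-HDHA replicate 5 the second lowest weight, 0.461, after 0.361 for PBS replicate 3, and gave the highest weights, 2.26 and 3.17, to replicates 1 and 2 of the 4-HDHA group. That fit had a type I median of -0.10, with 10 of 19 members negative. The interferon-gamma median stayed positive throughout, at 0.36 without PBS replicate 4 and 0.77 without PBS replicate 3, and all 10 members were positive in each of the 20 fits that were run. Whether the 2 classes differ in their response was not tested.

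**Figure D5:**
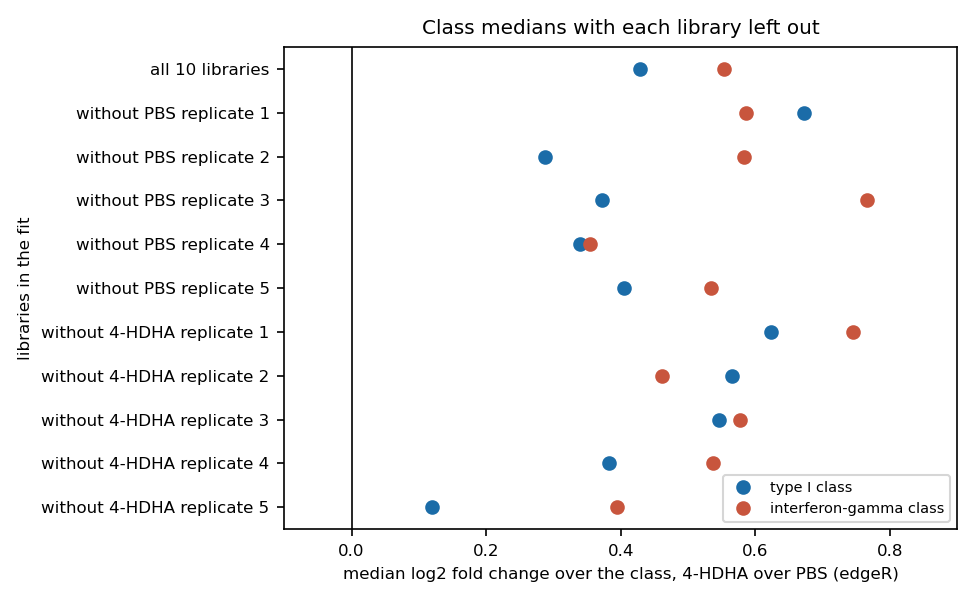
Median log2 fold change of 4-HDHA over PBS (horizontal axis) of the type I and the interferon-gamma class with all 10 libraries and with each library left out (vertical axis); the points carry no error bar. The type I median ranges from 0.12 without 4-HDHA replicate 5 to 0.67 without PBS replicate 1, and the interferon-gamma median from 0.36 to 0.77.

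Single members differed in how far they rested on one colon. Gbp2 and Ifit3b had an unadjusted p under 0.05 in 20 of 20 fits, Ifit3 in 19, Gbp3 in 17, Irf7 in 12 and Xaf1 in 9; these fits share most of their libraries. The log2 fold change of Gbp2 ran from 0.88 to 1.22 with 1 library left out, and that of Ifit3b was at least 0.95. The count of members with an unadjusted p under 0.05, 6 with all libraries, was 12 without 4-HDHA replicate 1, 10 without PBS replicate 1 and 3 without 4-HDHA replicate 2. In the same fits the share of all genes higher at that p was 5.83%, 6.01% and 5.2%. Without 4-HDHA replicate 5, 4 of 36 members were higher at that p, against 10.7% of all genes. The weighted limma voom fit had 2 of 36 members higher, against 11.3% of all genes.

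Markers of immune cells also differed between libraries, in some with the members and in others not. In 4-HDHA replicate 5 the summed level of 13 B-cell and lymphoid follicle markers was 819 CPM, against 28.8 to 84.5 CPM in the other 4-HDHA colons and 20.4 to 260 CPM with PBS; 12 of the 13 had a higher mean with 4-HDHA, and Cr2 was at 0 in some libraries. The median sum, however, was lower with 4-HDHA, at 41.5 CPM against 85.3 CPM, and each of the other 4-HDHA colons lay below the PBS median. The 14 T and NK cell markers summed to 74.4 CPM in that library, against 20.7 to 47.4 CPM with PBS and as little as 23.6 CPM in the other 4-HDHA colons, with 11 of 14 higher in mean with 4-HDHA and none at 0. Here too the median sum was the lower one with 4-HDHA, at 31.1 CPM against 33.8 CPM. PBS replicate 4 was the lowest library for all 10 interferon-gamma members, 3 of 4 sensors, 2 of 3 transcription factors and 2 of 19 type I members. It had the lowest sums of T and NK cell markers (20.7 CPM), of 12 macrophage markers (619 CPM) and of 10 endothelial markers (75.2 CPM). Macrophage markers summed to 619 to 1250 CPM with PBS and 825 to 1940 CPM with 4-HDHA, with 10 of 12 higher in mean and none at 0. The library 4-HDHA replicate 1, low for many type I members, had 1340 CPM of macrophage markers, above every PBS colon, while 4-HDHA replicate 5 had 1250 CPM. In 4-HDHA replicate 2, among the highest for Gbp2 and Ifit3, T and NK cell markers summed to 23.6 CPM, the lowest sum of its group. Endothelial markers summed to 75.2 to 123 CPM with PBS and 99.6 to 190 CPM with 4-HDHA, with 10 of 10 higher and none at 0. The part of these cells in the interferon-stimulated genes was not tested.

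Smooth muscle, the outer wall of the gut, also differed between colons, with 10 markers summing to 1100 to 5230 CPM with PBS and 1490 to 8370 CPM with 4-HDHA, none at 0 and 10 of 10 higher in mean with 4-HDHA. The median sum was 6570 CPM with 4-HDHA, against 2640 CPM. Replicates 1 to 4 of the 4-HDHA group, at 5640 to 8370 CPM, lay above every PBS colon, and replicate 5 had the lowest sum of its group. Markers of plasmacytoid dendritic cells, a main source of type I interferon, summed to 169 to 832 CPM with PBS and 483 to 549 CPM with 4-HDHA (medians 407 and 497 CPM). Of these, 10 of 10 were higher in mean with 4-HDHA, and Siglech and Cox6a2 were at 0 in some libraries. PBS replicate 2 had the highest sum but a median marker deviation in log2 CPM of -0.35. PBS replicate 3 had the lowest sum but a deviation of 0.28. The list shares Bst2 with the further type I targets and Spib with the B-cell markers, so its sum does not measure these cells alone. Bst2 was at 15.9 to 29.7 CPM with PBS and 16.6 to 35.6 CPM with 4-HDHA, so most of each sum came from markers other than Bst2. Neutrophil markers summed to 392 to 1200 CPM with PBS and 265 to 748 CPM with 4-HDHA. Of these, 2 of 10 were higher in mean with 4-HDHA, with Camp and Ngp at 0 in some libraries. The sum could part from the median marker deviation in log2 CPM. These were 721 CPM and -2.06 in 4-HDHA replicate 1, and 416 CPM and 0.73 in PBS replicate 4. Fat cell markers summed to 126 to 169 CPM with PBS and 161 to 361 CPM with 4-HDHA, with 8 of 8 higher in mean and Adipoq, Plin1 and Lep at 0 in some libraries. Squamous and skeletal muscle markers of the anal margin summed to 12.0 to 208 CPM with PBS and 123 to 332 CPM with 4-HDHA, with 12 of 12 higher in mean and Myh4 and Pvalb at 0 in some libraries. Their part in the result was not tested either.

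The interferons themselves were hardly detected. Of 21 interferon genes, 18 had 0 counts in every library, Ifnb1 and all the Ifna genes listed among them; a count of 0 allows up to 3 counts, or 0.0433 to 0.0613 CPM with TMM scaling, depending on the library. These limits cover counting error only. Ifnz summed to 15 counts and Ifnl3 to 8 over the 10 libraries. Ifng, made by T and NK cells, had 11, 11, 102, 8 and 5 counts in PBS replicates 1 to 5 and 0, 8, 20, 4 and 121 counts in 4-HDHA replicates 1 to 5. Its high libraries were 1 in each group, PBS replicate 3 and 4-HDHA replicate 5. None of the 21 passed the filter on low counts, so none was tested.

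Receptors and signalling genes showed no called difference. Among 6 receptor chains, 5 had a positive log2 fold change, with a median of 0.14; 0 of 6 had an unadjusted p under 0.05. Ifnar1 was at 43.2 ± 4.68 CPM (PBS) against 43.7 ± 5.24 CPM (4-HDHA), as mean ± SD of 5 libraries each, with a log2 fold change of 0.02 and a 95% interval from -0.23 to 0.26. Ifngr1 was at 0.25 (SE 0.24, edgeR adjusted p = 0.618), Ifngr2 at 0.23 (SE 0.15, edgeR adjusted p = 0.442) and Ifnlr1, the chain through which epithelium senses interferon-lambda, at -0.17 (SE 0.18, edgeR adjusted p = 0.642). With 1 library left out, Ifngr1 ran from 0.13 without PBS replicate 3 to 0.44 without PBS replicate 5.

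Of 11 kinases and transcription factors outside the set, 7 were positive, with a median of 0.03 and 0 with an unadjusted p under 0.05. Irf9, which completes the type I complex, was at 0.16 (SE 0.14, edgeR adjusted p = 0.577). Irf2, a repressor of interferon targets, was at 0.31 (SE 0.15, edgeR adjusted p = 0.358) and Irf5, an inducer of inflammatory genes, at 0.64 (SE 0.35, edgeR adjusted p = 0.387). Without 4-HDHA replicate 5, Irf5 was at 0.28 and Irf9 at 0.09.

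Of 8 negative regulators, 3 were positive and 0 had an unadjusted p under 0.05. Socs1, which blocks the receptor kinases, was at -0.01 (SE 0.46, edgeR adjusted p = 0.992), Ptpn6, a phosphatase of blood cells, at 0.55 (SE 0.30, edgeR adjusted p = 0.384) and Irf2bp1, a corepressor, at -0.19 (SE 0.15, edgeR adjusted p = 0.517). Of 12 upstream sensors and adaptors, 6 were positive and 0 had an unadjusted p under 0.05. Tlr7, which senses single-stranded RNA in endosomes, was at 0.58 (SE 0.33, edgeR adjusted p = 0.400). Tlr9, which senses unmethylated DNA, was at 1.07 (SE 0.58, edgeR adjusted p = 0.385), with 2.29, 1.82, 2.42, 1.66 and 2.04 CPM in PBS replicates 1 to 5 and 1.51, 1.76, 2.20, 2.76 and 13.2 CPM in 4-HDHA replicates 1 to 5; 4-HDHA replicate 5 was far above the other 9 colons. Ptpn6 also stood highest there, with 96.7 CPM against 28.3 to 42.7 CPM in the other 4-HDHA colons. Without that library the log2 fold change was 0.0074 for Tlr9, 0.14 for Ptpn6 and -0.54 for Socs1; Tlr7 was then at 0.41.

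Interferon targets outside the set had mostly positive fold changes, without a call by edgeR or DESeq2, and how many depended on single libraries. Of 50 further type I targets, 42 were positive, with a median log2 fold change of 0.30. At an unadjusted p under 0.05, 8 of the 50 were higher and 1 was lower, against 7.39% and 7.45% of all genes. The lower one was Pnpt1, a mitochondrial ribonuclease, named after its value was seen. Sp100, a nuclear body protein, had 75.7, 42.5, 38.2, 39.5 and 68.0 CPM in PBS replicates 1 to 5 and 65.2, 93.0, 72.5, 92.5 and 118 CPM in 4-HDHA replicates 1 to 5. Replicates 2, 4 and 5 of the 4-HDHA group were above every PBS colon, and the log2 fold change was 0.74 (SE 0.23, edgeR adjusted p = 0.303). Oas1c was the only one of the 50 whose groups did not overlap, against 1.16% of all genes with the 4-HDHA libraries higher. It had 3.00, 2.89, 2.20, 3.00 and 3.43 CPM in PBS replicates 1 to 5. In 4-HDHA replicates 1 to 5 it had 3.67, 4.60, 4.33, 3.53 and 5.00 CPM. Its log2 fold change was 0.54 (SE 0.19, edgeR adjusted p = 0.303). Without 4-HDHA replicate 5, 33 of the 50 were positive, with a median of 0.17. In that fit 3 of the 50 were higher at an unadjusted p under 0.05, against 10.7% of all genes. With weighted limma voom 35 were positive, with a median of 0.13, and 4 were higher at that p, against 11.3% of all genes. The count at that p was 16 without PBS replicate 1, 11 without 4-HDHA replicate 1 and 4 without PBS replicate 4. In these fits 6.01%, 5.83% and 4.37% of all genes were higher at that p.

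Cxcl10, a chemokine that attracts T cells and is induced by both kinds of interferon, had a lower fitted level, with 20.99, 17.5, 103, 6.57 and 9.46 CPM in PBS replicates 1 to 5 and 5.02, 11.7, 15.3, 9.92 and 84.7 CPM in 4-HDHA replicates 1 to 5. PBS replicate 3 and 4-HDHA replicate 5, the libraries high for Ifng, were high here too, and the log2 fold change was -0.32 (SE 0.90, edgeR adjusted p = 0.881). It was 0.89 without PBS replicate 3 and -1.59 without 4-HDHA replicate 5.

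Of 29 further interferon-gamma targets, 27 were positive, with a median log2 fold change of 0.48. At an unadjusted p under 0.05, 5 of the 29 were higher and 0 lower, against 7.39% and 7.45% of all genes. Named after their values were seen, the 5 were the immunoproteasome subunits Psmb8 and Psmb9, the peptide transporter chains Tap1 and Tap2, and Tapbp. Tapbp (tapasin), which helps to load peptides onto class I molecules, had 278, 246, 190.0, 217 and 259.6 CPM in PBS replicates 1 to 5 and 266, 401, 284, 399 and 376 CPM in 4-HDHA replicates 1 to 5. Replicates 2 to 5 of the 4-HDHA group were above every PBS colon and replicate 1 was within their range, as for Gbp2; the log2 fold change was 0.54 (SE 0.16, edgeR adjusted p = 0.295). Psmb9, a subunit of the immunoproteasome, had 54.7, 49.2, 45.0, 42.8 and 40.5 CPM in PBS replicates 1 to 5 and 40.2, 72.3, 60.5, 74.3 and 89.2 CPM in 4-HDHA replicates 1 to 5. The same 4 colons were above all PBS colons, replicate 1 of the 4-HDHA group was the lowest of 10, and the log2 fold change was 0.54 (SE 0.19, edgeR adjusted p = 0.303). Of the 29, 24 were positive without 4-HDHA replicate 5, with a median of 0.28. In that fit 2 of the 29 were higher at an unadjusted p under 0.05, against 10.7% of all genes. With weighted limma voom 23 were positive, with a median of 0.35 and 2 higher at that p, against 11.3% of all genes. Leaving out 4-HDHA replicate 1 raised that count to 16, against 5.83% of all genes. The count was 2 without PBS replicate 4, 4-HDHA replicate 2 or 4-HDHA replicate 4, against 4.37%, 5.2% and 4.74% of all genes.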

How the data were processed

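The members and gene lists were chosen with earlier results of these data known. Libraries were paired-end and strand-marked, from poly(A) RNA, per the labels. The submitters' processing notes list the build mm10 and the tools StringTie 1.3.4d, HISAT2 2.0.4, cutadapt 1.9, DESeq2 and edgeR, without order or settings. The authors deposited raw counts per gene as whole numbers, and FPKM values, scaled to gene length and library size. Counts appear in both deposited tables and differ between them in 0 cells.

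The main test was run on the counts in edgeR 4.0.16 (R 4.3.3): TMM scaling, filterByExpr, a robust quasi-likelihood F test of group, and Benjamini-Hochberg adjustment over all 19615 genes at 0.05. CPM use TMM scaling. Log2 fold changes are 4-HDHA over PBS, with the SE implied by the test. Alternatives were DESeq2 1.42.0, limma 3.58.1 (voom with quality weights, and limma-trend on log2 FPKM with a pseudocount of 1 or 0.1 for genes with a mean FPKM of at least 0.1), RLE and upper quartile scaling, no filter, 1 CPM in 5 libraries, a replicate block and each library left out. Depth was 50915365 to 66470519 counts a library. Values in every library are printed for the 3 members of each class with the smallest p, the most abundant of each class, fixed members (Isg15, Ifit1, Mx1, Irf7, Irf1, Stat2, Gbp2); pathway genes are named where fixed by name or among the 2 smallest p of a list, and 1 gene so fixed is not reported here. Positions are those of the deposited table, on mm10; 31 of 36 members have the same start and end in GENCODE M21, whose transcripts gave the shared stretches.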

Additional observations from a re-analysis of the deposited data

Results flagged for a closer look

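In groups of 5 libraries, a colon was set apart where its gap to the nearest other, divided by the group's range of log2 CPM, exceeded 0.71. Of 108 groups over 54 genes, 6 were set apart, and chance sets apart about 1 in 20. Low values in PBS replicate 4 were those of Gbp2, at 177 CPM, and Gbp7, at 28.3 CPM. Low values in 4-HDHA replicate 1 were those of Gbp6, at 24.0 CPM, and Iigp1, at 42.7 CPM. Cmpk2 was high in PBS replicate 1, at 24.6 CPM, and Tlr9 was high in 4-HDHA replicate 5, at 13.2 CPM.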

How the results depend on the processing

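None of the alternatives run called a member or a gene of the pathway lists. DESeq2 called 308 of all genes (201 higher and 107 lower), against 0 by edgeR, whose smallest adjusted p was 0.283 and which had 1449 genes higher and 1462 lower at an unadjusted p under 0.05. With libraries weighted by quality in limma voom, the type I median turned to -0.10, and Isg15 (-0.31), Ifit1 (-0.18), Rsad2 (-0.24), Oas2 (-0.23), Oas3 (-0.12), Mx2 (-0.31), Usp18 (-0.31), Ifi44 (-0.57), Cmpk2 (-0.10) and Ifnar1 (-0.0118) turned negative. Mx1, at zero difference, was positive at 0.0231 with RLE scaling, 0.0274 with upper quartile scaling, 0.0229 without the filter, 0.0143 with the stricter filter and 0.0237 with DESeq2. Socs1 turned positive at 0.0256 with RLE, 0.0381 with upper quartile scaling, 0.0289 without the filter and 0.0249 with DESeq2. With 1 library left out, log2 fold changes that changed sign ran from -0.0168 to 0.66 for Isg15, -0.0306 to 0.79 for Rsad2, -0.11 to 0.42 for Oas2, -0.0407 to 0.87 for Oas3, -0.41 to 0.21 for Mx1, -0.0688 to 0.60 for Mx2, -0.17 to 0.68 for Usp18, -0.16 to 0.57 for Ifi44, -0.0377 to 0.0652 for Ifnar1, -0.54 to 0.23 for Socs1 and -1.59 to 0.89 for Cxcl10. The cause of these changes was not tested. Over all members, 345 values kept their sign and 15 changed it with 1 library left out, and under the other settings 310 kept it and 14 changed it. Replicate numbers did not pair the libraries: correlations of same-numbered deviations were 0.01, 0.08, 0.08, -0.32 and -0.003, and no library correlated best with its own number. With the replicate block, 0 members were called and their median log2 fold change was 0.48. Of 21 interferon genes, 18 had 0 counts in every library, so depth sets only an upper limit on them.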
